A study of Homo sapiens with 9 samples.

Results

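The data described here are the mRNA levels of 46 DNA replication and S-phase genes in HCT116 cells, a human colorectal cancer (CRC) line, with and without overexpression of the long noncoding RNA (lncRNA) CRLM1. The 46 genes were taken by symbol from a list of origin licensing, replication fork, nucleotide supply and G1/S genes. All 46 were present in the count table of 31558 genes, and all 46 were tested in every comparison. Poly(A) RNA was sequenced as paired reads in 9 libraries, in 3 groups of 3 biological replicates.

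For overexpression, the study's methods describe CRLM1 cDNA cloned into a pTSB plasmid. They also describe a lentiviral pTSB-GFP-puro vector and selection with puromycin. The paper's results call the HCT116 cells of this RNA-seq transfected and do not mention selection there. Ctrl cells carried the empty plasmid, and Anti cells carried the plasmid with CRLM1 antisense sequences. All 3 groups shared the parental line and culture in McCoy's 5A medium with serum. Whether the replicates of a group came from separate introductions of the vector is not given in the sources used here. If they did not, differences between the cell populations, selected or not, and effects of the inserted sequence cannot be told apart. The p-values therefore measure only the spread between these samples, which may be technical. The comparison of CRLM1-OE with each control asks what changed with CRLM1 overexpression, and the comparison of Anti with Ctrl gives the difference between the controls measured in the same way.

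DNA replication starts when the origin recognition complex, CDC6 and CDT1 load the MCM2 to MCM7 helicase onto origins in G1. The helicase is switched on at S-phase entry by CDC45, the GINS complex and MCM10, after which primase, DNA polymerases, the sliding clamp PCNA and its loader RFC copy the DNA. Many of these genes are transcribed at the G1/S boundary by E2F transcription factors, which cyclin E and its kinase help to release from the retinoblastoma protein RB1.

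The libraries held 33302292 to 44514692 counts each. A signal of 3 counts, taken as the floor, equals 0.0674 to 0.0901 CPM, the unit of counts scaled to a fixed library total. CRLM1 itself, annotated as LINC01767, had 32751 to 38704 counts in CRLM1-OE, 0 in each Ctrl library and 1540 to 1951 in Anti. Use of strand in counting is not given in the sources used here, so sense and antisense reads at CRLM1 cannot be told apart. The share of counts from mitochondrial genes was 5.63% to 5.71% in CRLM1-OE, 6.39% to 6.54% in Ctrl and 7.17% to 7.28% in Anti, and its part in the results was not tested. Among 9 markers of colorectal epithelium, KRT8, KRT18, KRT19, EPCAM and CDH1 had at least 114 normalised CPM in every library, whereas KRT20, VIL1 and CDX1 averaged at most 1.02 normalised CPM in any group. Of the 9 markers, 4 (44.4%) were lower and none higher in CRLM1-OE than in Ctrl, and 5 (55.6%) were lower and 1 (11.1%) higher than in Anti. Among all genes averaging 50 or more counts, a level that 6 of the 9 reached, 36.5% were lower and 28.9% higher against Ctrl. Against Anti these shares were 38.7% and 33.3%. The share lower than Ctrl was thus near that of other genes, and whether the markers differed from them was not tested. KRT18 had 935, 933 and 940 in CRLM1-OE, 1868, 1859 and 1876 in Ctrl and 1832, 1888 and 1910 in Anti. The fitted level in CRLM1-OE was 49.9% lower than in Ctrl for KRT18 and 21.7% lower for EPCAM. The summed level of the 9 was 9048 to 9126 in CRLM1-OE, 11170 to 11280 in Ctrl and 9236 to 9306 in Anti, and its part in the results was not tested. Without KRT19, the most abundant marker, the sum was 4369 to 4385 in CRLM1-OE, 5900 to 5944 in Ctrl and 5574 to 5684 in Anti. Anti then lay nearer to Ctrl than to CRLM1-OE. Of 13 markers of fibroblasts, endothelium and blood cells, 11 were in the table, and their summed level was 20.2 to 22.9 normalised CPM in CRLM1-OE, 13.7 to 14.04 in Ctrl and 13.0 to 14.2 in Anti. Most of that sum was COL1A1 and CD68, COL1A2 was at 0 in every Ctrl and Anti library, and PTPRC, PECAM1 and CDH5 averaged at most 0.0715.

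Levels are given in normalised CPM, that is, CPM scaled by edgeR's trimmed mean factors over all 9 libraries, and library values are listed in the order of replicates 1 to 3. A log2 fold change is the fitted difference between groups, with its standard error (SE). A gene passed the test when the adjusted p of edgeR's quasi-likelihood test, corrected over all genes tested with the Benjamini-Hochberg method, was at most 0.05. The differentially expressed genes (DEGs) of the study also had to change 2-fold or more.

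The summed level of the 46 genes was 1279 ± 14.9 normalised CPM (SD, n = 3) in CRLM1-OE, against 1557 ± 21.0 in Ctrl and 1765 ± 8.02 in Anti. The libraries ranged from 1268 to 1296, from 1534 to 1575 and from 1757 to 1773, so that no group overlapped another. As a share of library totals without scaling factors, the order of the groups was the same, with 1341 ± 14.5, 1479 ± 16.4 and 1772 ± 4.04 CPM. Because whole cultures were sequenced, a smaller number of cells in S phase and a smaller amount of these RNAs per cell cannot be told apart.

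**Figure D1:**
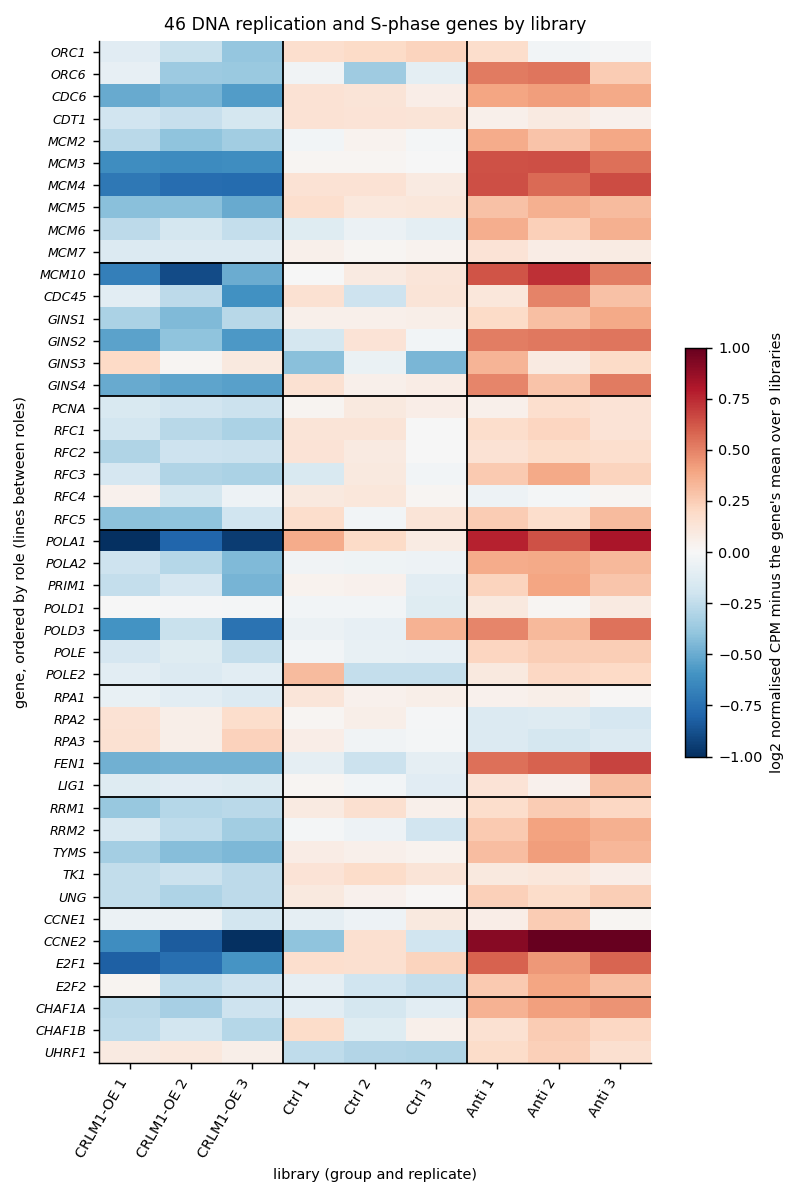
Level of each of the 46 genes (rows, by role) in each of the 9 libraries (columns), as log2 normalised CPM minus the mean of that gene over the 9 libraries. Blue is below and red above the mean, and the colours are capped at 1 and -1. Most rows are blue in the 3 CRLM1-OE libraries and red in the 3 Anti libraries, with Ctrl between them.

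Compared with Ctrl, 31 of the 46 genes were lower in CRLM1-OE and 3 were higher, and 12 did not pass the test. Over all genes tested, 16.8% passed as lower and 15.0% as higher. Because every one of the 46 genes had a mean count of at least 50 in the libraries compared, the shares were also taken over the genes with that minimum, which was set after the values were seen and whose members are called well-counted. Of the well-counted genes 36.5% passed as lower and 28.9% as higher, against 67.4% and 6.52% of the 46 genes. The median log2 fold change of the 46 genes was -0.32, and that of the well-counted genes was -0.04. In 33 of the 46 genes every CRLM1-OE library was below every Ctrl library, as in 38.8% of the well-counted genes. At a 2-fold change, which 3.41% of all genes tested reached with an adjusted p of at most 0.05, POLA1 was the only DEG among the 46.

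Compared with Anti, 40 of the 46 genes were lower in CRLM1-OE and 2 were higher, and 4 did not pass the test. The shares over all genes tested were 18.5% lower and 17.1% higher, and those over well-counted genes were 38.7% and 33.3%. Of the 46 genes, 87.0% passed as lower. Their median log2 fold change was -0.54, beside -0.03 over well-counted genes. Every CRLM1-OE library was below every Anti library in 42 of the 46 genes, as in 40.7% of the well-counted genes. A total of 8 genes reached 2-fold, all lower (CCNE2, POLA1, MCM4, MCM10, E2F1, MCM3, FEN1 and GINS2), beside 5.65% of all genes tested in either direction.

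The control groups also differed from each other. Compared with Ctrl, 29 of the 46 genes were higher in Anti and 4 were lower (CDT1, RPA2, RPA3 and TK1), and 13 did not pass the test. Over all genes tested, 11.5% passed as higher and 12.2% as lower, and over well-counted genes the shares were 24.2% and 26.9%. Of the 46 genes, 63.0% passed as higher. The median log2 fold change of the 46 genes was 0.26, beside -0.0023 over well-counted genes. Every Ctrl library was below every Anti library in 32 of the 46 genes, as in 31.6% of the well-counted genes. CCNE2 was the only member that reached 2-fold, as did 1.06% of all genes tested. The 3 comparisons share libraries in pairs, so their values are given side by side and not as independent evidence of one another.

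**Figure D2:**
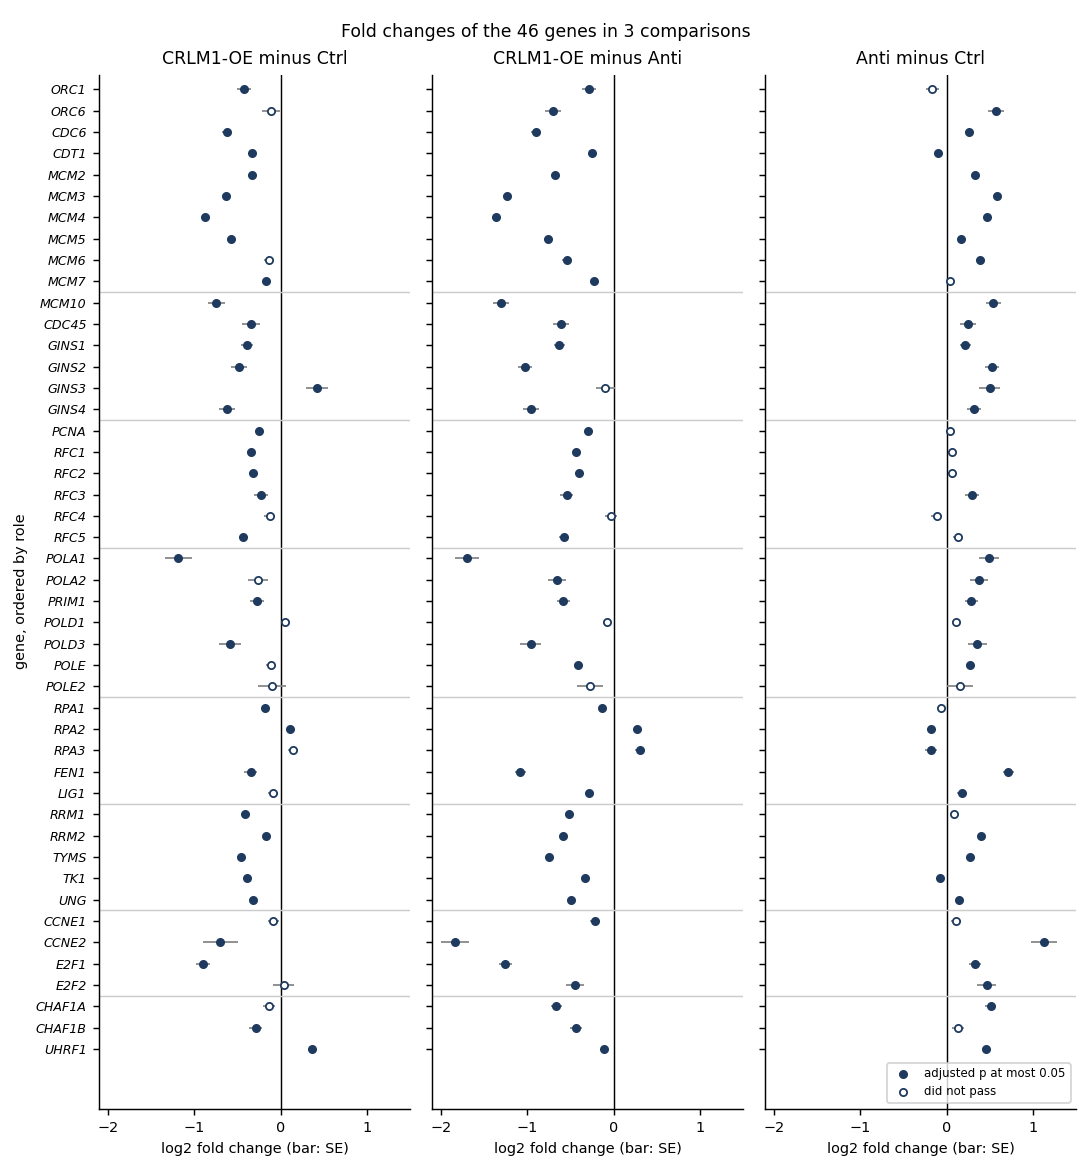
Fitted log2 fold change (x axis) of each of the 46 genes (y axis, by role) in the 3 comparisons, with bars for the SE. Filled points passed the test (adjusted p of at most 0.05) and open points did not. In the first panel 31 filled points lie left of 0 and 3 right of it, in the second 40 and 2, and in the third 4 and 29.

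The scale on which libraries were compared moved the fold changes against Ctrl. With library totals in place of trimmed mean factors, the median of well-counted genes moved from -0.04 to 0.10 in the comparison of CRLM1-OE with Ctrl, and the median of the 46 genes from -0.32 to -0.18. The distance between the medians was -0.28 on both scales, and the counts became 24 lower and 5 higher. The 7 lower calls lost were those of MCM7, CDC45, RFC3, PRIM1, RPA1, RRM2 and CHAF1B, with adjusted p of 0.124 to 0.647. In the comparison of Anti with Ctrl the same change of scale moved the median of well-counted genes to 0.10, that of the 46 genes from 0.26 to 0.37 and the counts of members to 38 higher and 0 lower, so the 4 lower calls there depended on the scaling factors. With limma on log2(FPKM + 0.1), where FPKM is fragments per kilobase of exon relative to library depth, 17 members were lower than in Ctrl and 4 were higher, and the 14 lower calls lost were those same 7 and GINS2, PCNA, RFC1, RFC2, RFC5, POLD3 and CCNE2.

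**Figure D3:**
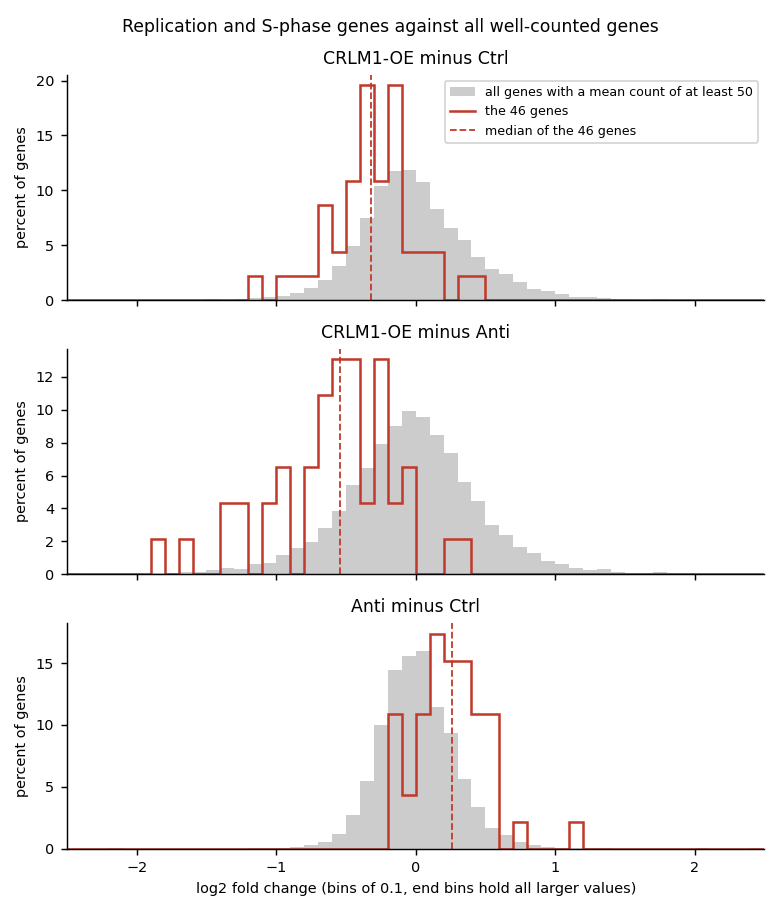
Distribution of the log2 fold change (x axis, bins of 0.1) for all well-counted genes (grey, percent of genes) and for the 46 genes (red line, percent of the 46), in the 3 comparisons. The dashed line marks the median of the 46 genes, at -0.32, -0.54 and 0.26.

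Promoter sequences are shown for 3 of the 4 members of largest fall against Ctrl (POLA1, E2F1 and MCM10, since MCM4 had no window) and for UHRF1, the only riser among the members whose library values the naming rule called for (GINS3, which rose more, was added later), because E2F is the textbook regulator of this gene group. Of the 46 genes, 39 had a window in the RefSeq promoter table (GRCh38.p14), each of 250 bases before to 50 bases after an annotated start. Windows were searched on both strands for 5 E2F words, TTTGGCGC, TTTGCCGC, TTTCGCGC, TTTCCCGC and TTCCCGCC, of which the last 2 can overlap. Capitals mark the matches as they read on the strand of the gene.

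POLA1, chrX:24693668-24693967, plus strand: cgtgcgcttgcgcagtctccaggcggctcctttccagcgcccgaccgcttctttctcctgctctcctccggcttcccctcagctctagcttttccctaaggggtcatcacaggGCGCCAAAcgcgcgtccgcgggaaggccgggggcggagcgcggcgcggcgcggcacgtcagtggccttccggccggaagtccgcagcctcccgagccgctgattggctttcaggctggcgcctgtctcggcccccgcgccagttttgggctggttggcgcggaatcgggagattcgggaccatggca
E2F1, chr20:33686336-33686635, minus strand: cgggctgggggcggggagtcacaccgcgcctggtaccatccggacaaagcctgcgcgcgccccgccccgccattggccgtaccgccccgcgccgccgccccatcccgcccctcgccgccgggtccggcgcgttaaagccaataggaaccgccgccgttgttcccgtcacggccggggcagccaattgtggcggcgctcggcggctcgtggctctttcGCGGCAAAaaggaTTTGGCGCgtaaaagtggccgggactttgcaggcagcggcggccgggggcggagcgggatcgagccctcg
MCM10, chr10:13161308-13161607, plus strand: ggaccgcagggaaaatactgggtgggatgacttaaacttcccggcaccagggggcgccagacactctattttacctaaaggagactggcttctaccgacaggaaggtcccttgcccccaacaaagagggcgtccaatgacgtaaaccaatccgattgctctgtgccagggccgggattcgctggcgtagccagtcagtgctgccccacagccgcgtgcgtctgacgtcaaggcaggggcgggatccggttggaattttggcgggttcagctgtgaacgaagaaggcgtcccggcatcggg
UHRF1, chr19:4909251-4909550, plus strand: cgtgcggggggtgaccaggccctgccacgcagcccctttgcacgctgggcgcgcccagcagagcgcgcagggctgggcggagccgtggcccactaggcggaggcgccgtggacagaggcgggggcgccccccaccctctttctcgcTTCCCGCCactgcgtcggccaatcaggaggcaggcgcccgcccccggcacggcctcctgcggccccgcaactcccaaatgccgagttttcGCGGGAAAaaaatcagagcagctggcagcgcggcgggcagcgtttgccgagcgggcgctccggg

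The POLA1 window held 1 E2F word, whose first base lies at -137 from the start. The E2F1 window held 2, at -33 and -20, and the UHRF1 window printed here held 2, at -104 and -14. UHRF1 also had windows that are not printed. That starting at position 4909894 held 1 word, at -160, and that starting at 4910117 held none. The MCM10 window held none, which says only that these letters are not in it. At least 1 word was found for 26 of the 39 genes (66.7%), against 6.67% of the 27305 genes in the table and 5.58% of its 35116 windows. The median log2 fold change against Ctrl was -0.27 for the 26 genes with a word and -0.34 for the 13 without. Against Anti these medians were -0.53 and -0.44, and in Anti against Ctrl they were 0.28 and 0.12. The difference between genes with and without a word was not tested. The CCAAT box (CCAAT) was present for 61.5% of the 39 genes and 39.7% of all genes, and the CHR word of cell cycle genes (TTTGAA) for 5.13%, in RRM1 and UNG, and 18.2%. A match is a description of the window and was not tested as a binding site.

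Of the 10 origin licensing genes, 8 were lower in CRLM1-OE than in Ctrl, all 10 were lower than in Anti, and none was higher in either comparison. The median log2 fold changes were -0.38 and -0.69. The shares that were lower, 80% and 100%, stand beside 36.5% and 38.7% of well-counted genes. In Anti 7 of the 10 (70%) were higher than in Ctrl, beside 24.2% of well-counted genes, and 1, CDT1, was lower.

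MCM4, a subunit of the hexameric replicative helicase, had 35.2, 34.1 and 34.0 normalised CPM in CRLM1-OE, 64.0, 64.0 and 61.8 in Ctrl and 90.4, 85.9 and 91.1 in Anti. Every CRLM1-OE library was below every Ctrl library, and every Ctrl library below every Anti library. The level was 45.5% lower than in Ctrl (log2 fold change -0.88, SE 0.0413, adjusted p = 1.24e-97) and 61.2% lower than in Anti (-1.37, SE 0.0366, adjusted p = 4.99e-301). MCM3, another subunit of the same ring, had 26.9, 26.6 and 26.8 normalised CPM in CRLM1-OE, 41.9, 41.8 and 41.2 in Ctrl and 64.2, 64.7 and 60.4 in Anti, with log2 fold changes of -0.64 against Ctrl (SE 0.0474, adjusted p = 1.37e-39) and -1.23 against Anti (SE 0.0420). MCM5 had 40.5, 40.4 and 38.0 in CRLM1-OE, 60.6, 58.1 and 58.3 in Ctrl and 66.1, 69.1 and 67.2 in Anti, and its log2 fold changes were -0.57 (SE 0.0408, adjusted p = 1.44e-43) and -0.76 (SE 0.0380). The 3 groups stood in the same order without overlap in both genes.

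MCM2 had 47.9, 43.7 and 45.3 normalised CPM in CRLM1-OE, 56.6, 59.4 and 56.9 in Ctrl and 74.6, 70.3 and 75.6 in Anti. Its log2 fold changes were -0.33 against Ctrl (SE 0.0399, adjusted p = 7.96e-16) and -0.68 against Anti (SE 0.0362, adjusted p = 1.31e-77). MCM6 was at 21.5, 22.8 and 21.9 in CRLM1-OE, 23.8, 24.8 and 24.1 in Ctrl and 33.2, 30.4 and 32.9 in Anti. The groups of both genes did not overlap, yet the log2 fold change of MCM6 against Ctrl, -0.13 (SE 0.0563), did not pass the test (adjusted p = 0.0529), whereas that against Anti, -0.54 (SE 0.0513, adjusted p = 4.14e-25), did. MCM7, the most abundant subunit, changed least against Anti, with a log2 fold change of -0.23 (SE 0.0257, adjusted p = 2.76e-18), and had -0.17 against Ctrl (SE 0.0284, adjusted p = 1.38e-08). The call of MCM7 against Ctrl was lost with library totals (-0.03, adjusted p = 0.520) and with limma (-0.05 and -0.06, adjusted p = 0.0904 and 0.441).

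The subunits of the ring therefore did not keep 1 ratio to each other at the mRNA level. On the FPKM scale, which corrects for transcript length, the ratio of MCM4 to MCM7 was 0.223 ± 0.0049 (SD, n = 3) in CRLM1-OE, against 0.363 ± 0.0083 in Ctrl and 0.490 ± 0.0143 in Anti. The ratio of MCM3 to MCM7 was 0.227 ± 0.00111, 0.314 ± 0.00369 and 0.456 ± 0.0177. The ratio of MCM6 to MCM7 was 0.161 ± 0.00474 in CRLM1-OE and 0.157 ± 0.00483 in Ctrl, closer than their SDs, and 0.200 ± 0.00746 in Anti.

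CDC6, the ATPase that loads the MCM ring together with CDT1, had 19.9, 20.5 and 19.2 normalised CPM in CRLM1-OE, 31.3, 30.9 and 29.5 in Ctrl and 37.0, 37.7 and 36.7 in Anti. No library of one group overlapped another. Its log2 fold change was -0.62 against Ctrl (SE 0.0544, adjusted p = 3.66e-29) and -0.90 against Anti (SE 0.0507, adjusted p = 3.37e-69). ORC6, a small subunit of the origin recognition complex, had 6.52, 5.36 and 5.35 in CRLM1-OE, 6.73, 5.39 and 6.47 in Ctrl and 9.93, 10.0 and 8.22 in Anti. Here CRLM1-OE and Ctrl overlapped and only Anti stood apart. The difference from Ctrl, -0.11 (SE 0.104), did not pass the test (adjusted p = 0.514), and that from Anti, -0.70 (SE 0.0937), did (adjusted p = 4.59e-13). ORC1, which begins the assembly of the complex on origins, and the loading factor CDT1 were lower than in Ctrl, with log2 fold changes of -0.42 (adjusted p = 6.92e-07) and -0.34 (adjusted p = 4.39e-28). Against Anti the values were -0.28 and -0.25, and the call of ORC1 against Anti was lost without CRLM1-OE replicate 3 (adjusted p = 0.0721) or Anti replicate 1 (0.0577).

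Of the 6 helicase activation genes, 5 were lower in CRLM1-OE than in Ctrl and 1, GINS3, was higher, with a median log2 fold change of -0.44. Against Anti 5 were lower, with a median of -0.79, and all 6 were higher in Anti than in Ctrl. The share that was lower, 83.3% against each control, stands beside 36.5% and 38.7% of well-counted genes. In Anti against Ctrl 24.2% of well-counted genes were higher.

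MCM10, a replication factor that binds the helicase and polymerase alpha, had 4.67, 4.05 and 5.35 normalised CPM in CRLM1-OE, 7.49, 8.02 and 8.18 in Ctrl and 11.6, 12.5 and 10.7 in Anti. The ranges did not overlap. The level was 40.2% lower than in Ctrl (log2 fold change -0.74, SE 0.103, adjusted p = 5.53e-12) and 59.4% lower than in Anti (-1.30, SE 0.0936, adjusted p = 1.58e-42). CDC45, which joins MCM2 to MCM7 and GINS in the active helicase, had 6.36, 5.71 and 4.49 in CRLM1-OE, 7.61, 5.92 and 7.46 in Ctrl and 7.38, 9.66 and 8.36 in Anti. CRLM1-OE replicate 1 was above Ctrl replicate 2, and Ctrl and Anti also overlapped. The call against Ctrl (-0.34, SE 0.102, adjusted p = 0.00316) was lost without CRLM1-OE replicate 3, where the log2 fold change was -0.21 (adjusted p = 0.161), or without Ctrl replicate 1, where it was -0.26 (adjusted p = 0.0727). Against Anti it was -0.61 (SE 0.0967, adjusted p = 1.95e-09).

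The GINS complex has 4 subunits, GINS1 to GINS4. GINS4 had 6.29, 6.19 and 6.13 normalised CPM in CRLM1-OE, 9.95, 9.27 and 9.38 in Ctrl and 12.5, 10.9 and 12.8 in Anti, with log2 fold changes of -0.62 (SE 0.0933, adjusted p = 2.35e-10) and -0.96 (SE 0.0875). GINS2 had 7.18, 7.84 and 6.99, 9.21, 11.4 and 10.2 and 14.8, 15.0 and 15.1 in the same order of groups, with log2 fold changes of -0.48 (SE 0.0891, adjusted p = 3.91e-07) and -1.03 (SE 0.0794). GINS1 had 13.1, 12.0 and 13.4, 16.9, 16.9 and 17.0 and 18.6, 20.1 and 21.2, with log2 fold changes of -0.39 (SE 0.0687, adjusted p = 7.32e-08) and -0.63 (SE 0.0654). In these 3 subunits CRLM1-OE was below Ctrl and Ctrl below Anti in every library. GINS3 went the other way against Ctrl, with 5.17, 4.59 and 4.84 in CRLM1-OE, 3.38, 4.32 and 3.30 in Ctrl and 5.73, 4.82 and 5.15 in Anti. Its log2 fold change was 0.42 against Ctrl (SE 0.123, adjusted p = 0.00269) and -0.10 against Anti (SE 0.111, adjusted p = 0.536), and Ctrl was below both other groups in every library.

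Of the 6 genes of the sliding clamp and its loader, 5 were lower than in Ctrl (median log2 fold change -0.28) and 5 lower than in Anti (median -0.42), and 1, RFC3, was higher in Anti than in Ctrl. The share that was lower, 83.3% against each control, stands beside 36.5% and 38.7% of well-counted genes. The 16.7% higher in Anti than in Ctrl stands beside 24.2%. PCNA, the ring that tethers polymerases to DNA, was lower than in both controls, with log2 fold changes of -0.25 against Ctrl (adjusted p = 2.57e-11) and -0.30 against Anti (adjusted p = 8.69e-19). RFC5, a small subunit of the complex that loads PCNA, had 18.9, 19.0 and 22.0 normalised CPM in CRLM1-OE, 28.5, 24.7 and 27.6 in Ctrl and 30.0, 28.4 and 31.3 in Anti. CRLM1-OE was below both control groups, and the controls overlapped each other. Its log2 fold changes were -0.43 against Ctrl (SE 0.0560, adjusted p = 1.46e-13) and -0.58 against Anti (SE 0.0535, adjusted p = 4.30e-26). RFC3 had 10.0, 9.13 and 9.03 in CRLM1-OE, 10.1, 12.0 and 11.1 in Ctrl and 13.5, 14.6 and 13.1 in Anti. The highest CRLM1-OE library lay just under the lowest Ctrl library, and the call against Ctrl (-0.23, SE 0.0822, adjusted p = 0.0186) was lost when any of 4 single libraries was left out, with an adjusted p of 0.225 without Ctrl replicate 2, 0.0956 without CRLM1-OE replicate 3, 0.0705 without Ctrl replicate 3 and 0.0625 without CRLM1-OE replicate 2. Against Anti the log2 fold change of RFC3 was -0.54 (SE 0.0765, adjusted p = 8.18e-12). The large subunit RFC1 and the small subunit RFC2 were lower than in Ctrl, with log2 fold changes of -0.35 and -0.32, and RFC4 did not pass the test in any comparison (log2 fold changes -0.13, -0.03 and -0.12).

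Of the 7 polymerase and primase genes, 3 were lower than in Ctrl (POLA1, POLD3 and PRIM1) and 4 did not pass, with a median log2 fold change of -0.26. The share that was lower, 42.9%, was near the 36.5% of well-counted genes. Against Anti 5 were lower, with a median of -0.58, and 5 were higher in Anti than in Ctrl.

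POLA1, the catalytic subunit of polymerase alpha, which starts each new strand, showed the largest fall of the 46 genes against Ctrl. It had 1.55, 1.94 and 1.74 normalised CPM in CRLM1-OE, 4.35, 3.85 and 3.57 in Ctrl and 5.73, 5.25 and 5.95 in Anti. All 3 CRLM1-OE libraries lay far under the lowest Ctrl library, and Anti was above Ctrl. The level was 55.9% lower than in Ctrl (log2 fold change -1.18, SE 0.151, adjusted p = 4.78e-14) and 69.2% lower than in Anti (-1.70, SE 0.138, adjusted p = 1.41e-33). These values rest on 68 to 69 counts per CRLM1-OE library and 119 to 184 per Ctrl library.

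POLA2, the second subunit of polymerase alpha, had 4.95, 4.68 and 4.21 in CRLM1-OE, 5.58, 5.54 and 5.51 in Ctrl and 7.38, 7.43 and 7.14 in Anti. The groups did not overlap, but only the difference from Anti passed the test (-0.66, SE 0.104, adjusted p = 1.13e-09), and that from Ctrl did not (-0.26, SE 0.112, adjusted p = 0.0596). The FPKM ratio of POLA1 to POLA2 was 0.262 ± 0.0409 (SD, n = 3) in CRLM1-OE, against 0.482 ± 0.0424 in Ctrl and 0.528 ± 0.0458 in Anti. PRIM1, the catalytic subunit of primase, which makes the RNA primer, had 9.85, 10.3 and 8.43 normalised CPM in CRLM1-OE, 11.9, 12.0 and 10.8 in Ctrl and 13.6, 15.3 and 14.1 in Anti. The groups were again ordered without overlap. Its log2 fold change was -0.28 against Ctrl (SE 0.0810, adjusted p = 0.00236; adjusted p = 0.0908 without CRLM1-OE replicate 3) and -0.58 against Anti (SE 0.0756, adjusted p = 9.54e-14).

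POLD3, an accessory subunit of the lagging-strand polymerase delta, had 2.90, 3.77 and 2.62 in CRLM1-OE, 4.21, 4.14 and 5.58 in Ctrl and 6.15, 5.49 and 6.37 in Anti. CRLM1-OE was below both controls, which overlapped each other. The log2 fold changes were -0.59 against Ctrl (SE 0.130, adjusted p = 3.30e-05) and -0.96 against Anti (SE 0.119, adjusted p = 6.79e-15). POLD1, the catalytic subunit of polymerase delta, did not pass the test in any comparison, with log2 fold changes of 0.05 against Ctrl, -0.08 against Anti and 0.10 between the controls. POLE, the catalytic subunit of the leading-strand polymerase epsilon, had -0.12 against Ctrl (adjusted p = 0.0843) and was lower than in Anti, with -0.41 (adjusted p = 7.72e-16). POLE2, its second subunit, had -0.10 and -0.28 and did not pass in either comparison.

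Of the 5 genes of single-strand binding and Okazaki fragment joining, 2 were lower and 1 higher than in Ctrl, a share near that of well-counted genes, and 3 were lower and 2 higher than in Anti. FEN1, the nuclease that trims Okazaki fragments before ligation, had 11.5, 11.5 and 11.5 normalised CPM in CRLM1-OE, 15.0, 13.8 and 15.0 in Ctrl and 23.5, 24.1 and 25.6 in Anti. The groups did not overlap, and the step between the controls was larger than that between CRLM1-OE and Ctrl. Its log2 fold changes were -0.35 against Ctrl (SE 0.0729, adjusted p = 1.21e-05), -1.08 against Anti (SE 0.0641, adjusted p = 5.26e-62) and 0.71 in Anti against Ctrl (SE 0.0628, adjusted p = 5.50e-28). The trimeric single-strand binding protein RPA did not follow the pattern of most members. RPA2 had 56.2, 52.9 and 57.5 in CRLM1-OE, 51.6, 52.9 and 50.4 in Ctrl and 46.3, 46.6 and 45.4 in Anti, and RPA3 had 20.4, 19.1 and 21.5, 19.2, 17.9 and 18.0 and 16.6, 16.2 and 16.7. Both were higher in CRLM1-OE than in Anti, by 0.27 (adjusted p = 1.28e-11) and 0.30 (adjusted p = 4.04e-06) on the log2 scale. Against Ctrl, RPA2 was higher by 0.11 (SE 0.0392, adjusted p = 0.0219), a call lost without CRLM1-OE replicate 3 (0.08, adjusted p = 0.156) or replicate 1 (0.10, adjusted p = 0.0799), and RPA3 had 0.14 (adjusted p = 0.0588). RPA3 did pass as higher than Ctrl with library totals (0.28, adjusted p = 2.06e-05) and with limma (0.23 and 0.25, adjusted p = 0.0136 and 0.0388). The large subunit RPA1 was lower in CRLM1-OE, with log2 fold changes of -0.18 against Ctrl and -0.14 against Anti. Its call against Ctrl was lost with library totals (-0.04, adjusted p = 0.444) and with limma (-0.06 on both scales, adjusted p = 0.256 and 0.473). LIG1, which seals the fragments, had -0.09 against Ctrl (adjusted p = 0.282) and was lower than in Anti, with -0.28 (adjusted p = 4.27e-07). The median of the 5 genes against Ctrl, -0.09, is the value of LIG1 and turned to 0.05 with library totals.

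All 5 genes of nucleotide supply and uracil removal were lower in CRLM1-OE than in Ctrl (median log2 fold change -0.39) and lower than in Anti (median -0.52). Of well-counted genes, 36.5% and 38.7% were lower in these comparisons. TYMS, thymidylate synthase, which makes dTMP, had 40.2, 38.0 and 37.3 normalised CPM in CRLM1-OE, 53.7, 52.8 and 52.4 in Ctrl and 63.2, 68.0 and 64.2 in Anti. The groups did not overlap. Its log2 fold changes were -0.46 against Ctrl (SE 0.0419, adjusted p = 1.41e-26) and -0.75 against Anti (SE 0.0386, adjusted p = 3.77e-83). RRM1, the large subunit of ribonucleotide reductase, which supplies deoxynucleotides, had 35.2, 37.6 and 37.9 in CRLM1-OE, 48.6, 51.1 and 47.3 in Ctrl and 51.7, 54.4 and 52.7 in Anti, again without overlap. Its log2 fold changes were -0.41 (SE 0.0430, adjusted p = 1.98e-20) and -0.52 (SE 0.0410, adjusted p = 1.50e-35). RRM2, the small subunit, had 53.1, 49.8 and 46.7 in CRLM1-OE, 58.5, 57.3 and 52.1 in Ctrl and 71.2, 78.5 and 76.0 in Anti. CRLM1-OE replicate 1 was above Ctrl replicate 3, and Anti stood above both groups. Its log2 fold change was -0.17 against Ctrl (SE 0.0394, adjusted p = 1.07e-04) and -0.59 against Anti (SE 0.0353, adjusted p = 1.65e-60). The call of RRM2 against Ctrl was lost with library totals (-0.03, adjusted p = 0.647) and with limma (-0.05 on both scales, adjusted p = 0.656), which leaves 4 of the 5 genes lower. TK1, the salvage thymidine kinase, and UNG, which removes uracil from DNA, had log2 fold changes of -0.39 and -0.33 against Ctrl, and of -0.33 and -0.49 against Anti, all of which passed the test.

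Of the 4 G1/S cyclin and E2F genes, 2 were lower than in Ctrl and all 4 were lower than in Anti. The share lower than in Ctrl, 50%, rests on 4 genes and stands beside 36.5% of well-counted genes. E2F1, a transcriptional activator of S-phase genes, had 6.73, 7.05 and 7.90 normalised CPM in CRLM1-OE, 13.3, 13.3 and 13.8 in Ctrl and 17.9, 16.1 and 17.8 in Anti. The groups did not overlap, and the level in CRLM1-OE was 46.4% lower than in Ctrl (log2 fold change -0.90, SE 0.0832, adjusted p = 4.82e-26) and 58.1% lower than in Anti (-1.25, SE 0.0768, adjusted p = 2.54e-58). E2F2, its close relative, had 5.15, 4.22 and 4.37 in CRLM1-OE, 4.75, 4.40 and 4.29 in Ctrl and 6.05, 6.63 and 6.23 in Anti. It overlapped Ctrl (0.03, SE 0.119, adjusted p = 0.859) and was lower than in Anti (-0.45, adjusted p = 1.14e-04). The FPKM ratio of E2F1 to E2F2 was 3.31 ± 0.547 (SD, n = 3) in CRLM1-OE, against 6.25 ± 0.432 in Ctrl and 5.68 ± 0.579 in Anti.

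CCNE2, cyclin E2, which drives S-phase entry with CDK2, had 1.32, 1.14 and 0.934 normalised CPM in CRLM1-OE, 1.54, 2.27 and 1.77 in Ctrl and 3.83, 4.37 and 4.10 in Anti. The groups did not overlap, and Anti was far above both others. Its log2 fold changes were -0.70 against Ctrl (SE 0.201, adjusted p = 0.00209), -1.84 against Anti (SE 0.162, adjusted p = 6.31e-29) and 1.12 in Anti against Ctrl (SE 0.149, adjusted p = 7.59e-13). The call against Ctrl was lost without Ctrl replicate 2, where the log2 fold change was -0.53 (adjusted p = 0.0623). CCNE1, cyclin E1, had -0.09 against Ctrl (SE 0.0617, adjusted p = 0.355) and was lower than in Anti, with -0.22 (adjusted p = 0.00113), a call lost without Anti replicate 2 (-0.13, adjusted p = 0.130). On the FPKM scale CCNE1 exceeded CCNE2 by 27.1 ± 3.19 times (SD, n = 3) in CRLM1-OE, 17.8 ± 3.50 times in Ctrl and 8.66 ± 0.501 times in Anti.

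**Figure D4:**
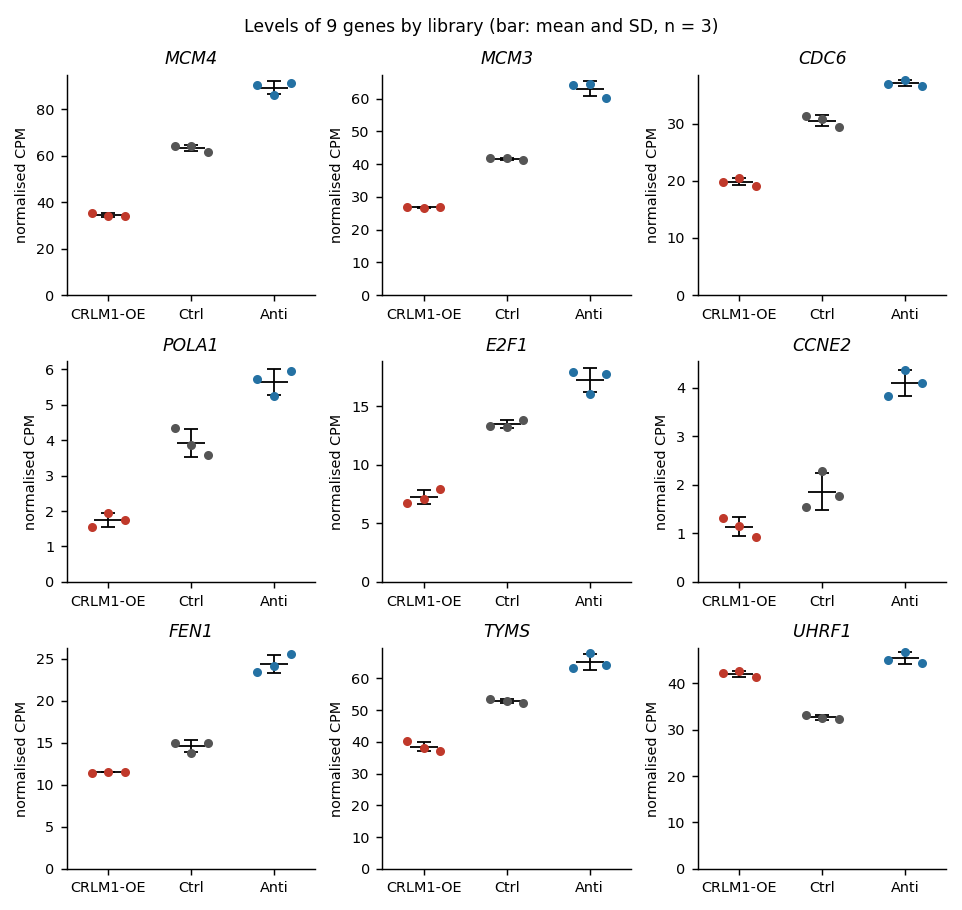
Normalised CPM (y axis, from 0) of 9 of the 46 genes in the 9 libraries, as points by group, with bars for the mean and SD of 3 replicates. In 8 genes CRLM1-OE is lowest, Ctrl intermediate and Anti highest without overlap, whereas in UHRF1 Ctrl is lowest.

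Of the 3 genes of chromatin assembly and maintenance, 1 was lower and 1 higher than in Ctrl, and all 3 were lower than in Anti. Against Ctrl these shares, 33.3% each, were near the 36.5% and 28.9% of well-counted genes. UHRF1, which recruits the maintenance DNA methyltransferase to newly copied DNA, had 42.2, 42.6 and 41.3 normalised CPM in CRLM1-OE, 33.2, 32.4 and 32.2 in Ctrl and 45.0, 46.8 and 44.4 in Anti. Ctrl was the lowest group and Anti the highest, and no groups overlapped. The level in CRLM1-OE was 1.29 times that in Ctrl (log2 fold change 0.36, SE 0.0454, adjusted p = 1.10e-14), and it was higher than in Ctrl in every alternative fit run. Against Anti it was -0.11 (SE 0.0412, adjusted p = 0.0250), a call lost without CRLM1-OE replicate 3 (-0.08, adjusted p = 0.180) or Anti replicate 2 (-0.08, adjusted p = 0.224). CHAF1A, the large subunit of the histone chaperone CAF-1, had 12.6, 12.0 and 13.2 in CRLM1-OE, 14.1, 13.4 and 14.1 in Ctrl and 19.3, 20.1 and 20.7 in Anti. CRLM1-OE lay just under Ctrl, with a log2 fold change of -0.13 (SE 0.0723) that did not pass the test (adjusted p = 0.168) and was 0.01 with library totals. The distance to Anti was -0.66 (SE 0.0657, adjusted p = 6.62e-23). CHAF1B, the middle subunit, was lower than in Ctrl, with -0.29 (adjusted p = 3.65e-04), a call lost without Ctrl replicate 1 (-0.20, adjusted p = 0.0591), and lower than in Anti, with -0.44.

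In Anti against Ctrl the largest differences were 1.12 for CCNE2, 0.71 for FEN1, 0.58 for MCM3 (SE 0.0398), 0.57 for ORC6 (SE 0.0942), 0.54 for MCM10 (SE 0.0861), 0.52 for GINS2 (SE 0.0765), 0.51 for CHAF1A (SE 0.0666) and 0.50 for GINS3 (SE 0.122) on the log2 scale, all of which passed the test. PCNA, RFC1, RFC2, RRM1 and MCM7 were lower in CRLM1-OE than in both controls and did not pass between the controls, with log2 fold changes of 0.03, 0.06, 0.06, 0.09 and 0.04. The same held for ORC1, RPA1, RFC5 and CHAF1B, with -0.17, -0.06, 0.12 and 0.13. With library totals the first 5 were higher in Anti than in Ctrl, at 0.14, 0.17, 0.17, 0.19 and 0.14 (adjusted p of 1.64e-06 to 0.00156). So were RFC5 and CHAF1B, both at 0.23 (adjusted p = 7.14e-05 and 0.00426). Whether these genes passed between the controls thus depended on the scaling factors. For RRM1 and RFC5 it also depended on which genes were tested. Both passed as higher in Anti with trimmed mean factors and the filter filterByExpr (0.09 and 0.13, adjusted p = 0.0497 and 0.0477). They also passed with at least 10 counts required in every sample (0.09 and 0.13, adjusted p = 0.0418 and 0.0414). RPA1 did not pass with library totals (0.04, adjusted p = 0.422). ORC1 had a negative log2 fold change in Anti against Ctrl in every fit run (-0.24 to -0.06), with adjusted p of 0.0334 to 0.618, and 0.123 in the main fit. Calls between the controls that were lost when 1 library was left out were those of 6 genes. The adjusted p of POLD3 was 0.052 to 0.0865 without Ctrl replicate 1 or 2 or Anti replicate 3, that of CDC45 0.0619 to 0.494 without Ctrl replicate 2 or Anti replicate 2 or 3, and that of RPA3 0.0547 to 0.172 without Ctrl replicate 1 or Anti replicate 2 or 3. That of TK1 was 0.055 to 0.278 without Ctrl replicate 2 or 3 or Anti replicate 1 or 3, that of LIG1 0.0551 to 0.225 without Ctrl replicate 3 or Anti replicate 3, and that of GINS1 0.066 without Anti replicate 3.

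In Ctrl the 46 genes spanned a 114-fold range on the FPKM scale, with a median of 5.43. TK1 was highest at 52.4 ± 0.755 FPKM (SD, n = 3), followed by PCNA at 43.5 ± 0.856, CDT1 at 34.9 ± 0.361 and MCM7 at 34.9 ± 0.525, of which the last 2 did not differ beyond their spread. The lowest were CCNE2 at 0.460 ± 0.0917, POLA1 at 0.603 ± 0.0611 and E2F2 at 0.730 ± 0.0436. The median coefficient of variation of a member's normalised CPM within a group was 3.91%, and the highest was 23.2%. The members with the fewest counts were CCNE2, POLE2 and POLA1, with means of 88.9, 95.2 and 142 counts over the 9 libraries.

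Genes of the same processes outside the 46 were read from lists made by function. Of 37 other replication factors, 21 were lower and 8 higher in CRLM1-OE than in Ctrl (median log2 fold change -0.26), and 28 were lower and 3 higher than in Anti (median -0.35). The shares that were lower, 56.8% and 75.7%, stand beside 36.5% and 38.7% of well-counted genes. HELLS, a chromatin remodeller, had 3.62, 3.54 and 3.61 normalised CPM in CRLM1-OE, 7.51, 7.87 and 7.88 in Ctrl and 11.0, 12.4 and 12.2 in Anti, with a log2 fold change of -1.11 against Ctrl (SE 0.110, adjusted p = 1.09e-22). The histone chaperone ASF1B had 7.50, 8.07 and 7.97, 13.5, 12.4 and 11.6 and 17.8, 17.0 and 17.4 in the same order of groups, with -0.68 against Ctrl (SE 0.0831, adjusted p = 4.86e-15). Both stood in the order of most of the 46 genes, without overlap of groups.

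Of 28 other G1/S regulators, 13 were lower and 7 higher than in Ctrl, and 15 were lower and 7 higher than in Anti. Against Ctrl these shares, 46.4% lower and 25% higher, were near the 36.5% and 28.9% of well-counted genes. Against Anti the shares were 53.6% and 25%, beside 38.7% and 33.3% of well-counted genes. The medians of the 28 genes, -0.10 and -0.24, are given with the reservation that the first is smaller than the shift between the scales described above. CDKN2D and CDKN1C, inhibitors of cyclin-dependent kinases, were higher in CRLM1-OE. CDKN2D had 26.7, 25.2 and 26.2 normalised CPM in CRLM1-OE, 12.0, 10.5 and 12.1 in Ctrl and 8.69, 8.89 and 8.90 in Anti (log2 fold change 1.17 against Ctrl, SE 0.0640, adjusted p = 3.75e-73). CDKN1C had 21.9, 21.6 and 20.8, 12.8, 14.7 and 12.0 and 7.33, 8.20 and 7.62 (0.71, SE 0.0650, adjusted p = 3.65e-26). In both the order of the groups was the reverse of that of most replication genes. Other inhibitors of this list did not all move that way. CDKN1A, far more abundant, was lower than Ctrl (-0.21, SE 0.0194, adjusted p = 8.71e-27) and Anti (-0.39). Its group means of 817, 948 and 1076 followed the order of the replication genes. CDKN1B did not pass against Ctrl (-0.05, adjusted p = 0.556). CDKN2B was higher than Ctrl (0.49) but lower than Anti (-0.26), and CDKN2C was higher than both (0.82 and 0.80). RB1, which holds E2F inactive, had 18.8, 18.1 and 16.8 in CRLM1-OE, 27.1, 27.5 and 24.6 in Ctrl and 23.9, 22.6 and 24.2 in Anti, with a log2 fold change of -0.56 against Ctrl (SE 0.0578, adjusted p = 4.30e-21).

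The 20 mitosis genes were read as a list of a later cell cycle phase. Against Ctrl 8 were lower and 3 higher in CRLM1-OE (median log2 fold change -0.10), and the 40.0% that were lower were near the 36.5% of well-counted genes. Against Anti 5 were lower and 9 higher (median 0.11), and in Anti 12 were lower and 2 higher than in Ctrl (median -0.25). The shares against Anti, 25% lower and 45% higher, stand beside 38.7% and 33.3% of well-counted genes. Those in Anti against Ctrl, 60% lower and 10% higher, stand beside 26.9% and 24.2%. The summed level of the 20 mitosis genes is given next. Their summed level was 599.7 to 612.5 normalised CPM in CRLM1-OE, against 563.4 to 571.8 in Ctrl and 473.5 to 479.0 in Anti, the reverse order of the 46 genes. CDC20 alone made up a mean of 206 of it in CRLM1-OE, against 124 in Ctrl and 87.4 in Anti. Without CDC20, a sum taken after the values were seen, the other 19 genes had 395.1 to 402.8 in CRLM1-OE, 439.5 to 451.0 in Ctrl and 386.7 to 390.0 in Anti, so that Ctrl was highest and the reverse order was lost. CDC20, an activator of the anaphase-promoting complex, had 210, 204 and 205, 121, 128 and 124 and 86.8, 86.4 and 89.0 (log2 fold change 0.73 against Ctrl, SE 0.0275, adjusted p = 2.62e-153). MKI67, the gene of the proliferation marker Ki-67, had 26.5, 23.7 and 26.3 in CRLM1-OE, 38.1, 34.7 and 31.8 in Ctrl and 40.5, 41.6 and 38.5 in Anti (-0.45, SE 0.0497, adjusted p = 1.62e-18). KIF11, a spindle motor, had 2.69, 2.57 and 3.05, 4.04, 3.53 and 3.51 and 5.23, 4.26 and 4.72 (-0.42, SE 0.138, adjusted p = 0.00936). MKI67 and KIF11 stood in the order of the replication genes and CDC20 in the opposite one. The difference between the mitosis list and the 46 genes was not tested. In their promoter windows, 12.5% of the 16 mitosis genes with a window held an E2F word, 87.5% a CCAAT box and 68.8% the CHR word, beside 66.7%, 61.5% and 5.13% of the 39 replication and S-phase genes.

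**Figure D5:**
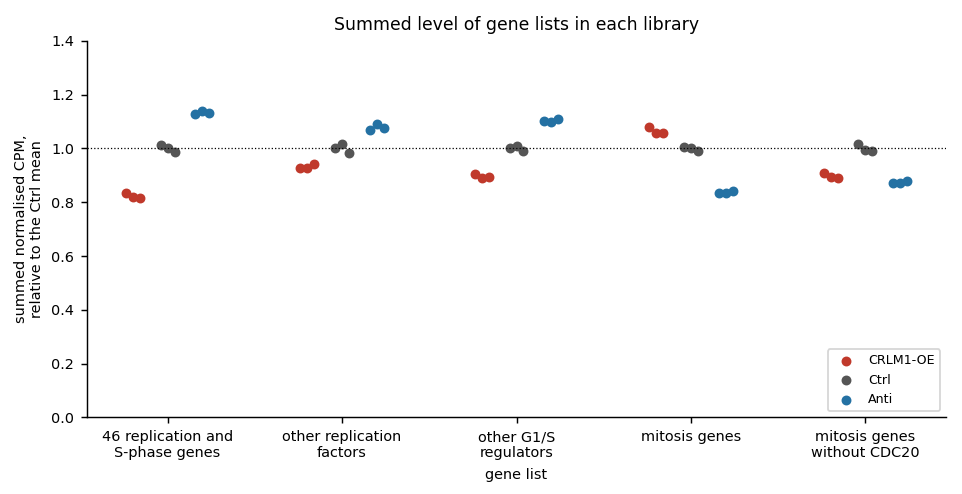
Summed normalised CPM of 4 gene lists, and of the mitosis genes without CDC20, in each library (y axis, relative to the mean of the 3 Ctrl libraries, from 0), with points for libraries coloured by group. The 46 genes, the other replication factors and the other G1/S regulators are lowest in CRLM1-OE and highest in Anti, and the 20 mitosis genes stand in the reverse order, which is lost without CDC20, where Ctrl is highest.

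Some members share exonic bases with other genes, so part of their counts may belong to the partner. In GENCODE version 44, 7 of the 46 genes overlapped an exon of another gene on the same strand and 18 on the opposite strand. The largest shares of a member's exonic bases were 39.9% for TYMS with ENOSF1, 37.0% for CCNE2 with INTS8, and 23.6% for MCM2 and 21.0% for GINS4 with lncRNAs, all on the opposite strand. Well-counted protein-coding genes of known exonic length were split into 3 equal classes of that length. The 19 members in the shortest class had a median log2 fold change of -0.34 against Ctrl, beside -0.06 for all genes of that class. The 19 members in the middle class had -0.29 beside -0.03, and the 8 members in the longest class had -0.33 beside -0.04.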

How the data were processed

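RNA-seq of HCT116 cells gave 9 samples, which were grouped by their labels into CRLM1-OE, Ctrl and Anti with 3 replicates each. Per the submitters' notes and methods, reads were trimmed with the FASTX-Toolkit and aligned to GRCh38 with TopHat2. The authors deposited a table of raw counts, in which uniquely mapped reads were summed for each gene and not normalised, and a table of FPKM values, scaled by the authors for exon length and depth. Both tables are limited to expressed genes, by a criterion not given in the sources used here.

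The quasi-likelihood test of edgeR 4.0.16 (R 4.3.3, TMM normalisation) was run on the 6 libraries of each comparison, with no covariate. Genes without any count in these libraries were left out, and p-values were adjusted over all others by the Benjamini-Hochberg method. Library totals of 33302292 to 44514692 counts set the precision, and the reads carry no molecular identifiers, so the floor of 3 counts covers counting error only. FPKM values were used for levels between genes and, with limma 3.58.1 on log2(FPKM + 1) and log2(FPKM + 0.1), as alternatives, where fold changes of low genes are understated. Other alternatives were RLE factors, library totals, filterByExpr, at least 10 counts in every sample, the Wald test of DESeq2 1.42.0, a fit of all 9 samples, the replicate block and each replicate left out. The edgeR fits with TMM, RLE or no factors and with the replicate block, and the DESeq2 fit, were run on simulated counts with known fold changes. The limma fits were run on simulated CPM in place of FPKM. The other filters, the fit of all 9 samples and the fits without 1 replicate were not checked in this way.

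The 46 genes, the lists and the rules were chosen with earlier results of these data known. Values per library are given for the member of largest change among those passing the test in each role, in each comparison with CRLM1-OE, and for each member with a log2 fold change of at least 0.5 in size that passed in any comparison. GINS3, RPA2, RPA3 and E2F2 were added after their values were seen, as were CDKN1A, CDKN1B, CDKN2B and CDKN2C from the other G1/S list. From the other replication, other G1/S and mitosis lists, the 3 genes of largest change that passed against Ctrl with a mean count of at least 100 are named, except for 1 that is not reported here. Gene positions are those of GENCODE version 44 on GRCh38, and promoter windows those of RefSeq on GRCh38.p14. Figures were drawn with matplotlib 3.10.9 in Python 3.11.15.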

Additional observations from a re-analysis of the deposited data

How the results depend on the processing

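The counts of members passing the test and the direction of their medians held under most alternatives, and no member that passed the test against Ctrl or Anti in CRLM1-OE changed sign in any of them. For CRLM1-OE against Ctrl, 5 members were higher with library totals and with limma on log2(FPKM + 1), and 17 were lower with limma on log2(FPKM + 0.1). The median was -0.18 with library totals, -0.30 with at least 10 counts in every sample, -0.16 and -0.20 with limma on log2(FPKM + 1) and log2(FPKM + 0.1), and -0.33 to -0.28 with 1 replicate left out, where 28 to 32 members were lower and 2 to 4 higher. For CRLM1-OE against Anti the median was -0.48 with library totals, -0.42 and -0.49 with limma, and -0.55 to -0.49 with 1 replicate left out. For Anti against Ctrl, 0 members were lower with library totals and with limma on log2(FPKM + 0.1), 1 with limma on log2(FPKM + 1), 2 with DESeq2 and 2 to 4 with 1 replicate left out, and the median was 0.37 with library totals, 0.35 with limma on log2(FPKM + 0.1) and 0.23 to 0.28 with 1 replicate left out. The cause was not tested.

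Among members that did not pass against Ctrl, library totals turned the log2 fold changes of ORC6 (0.0326), MCM6 (0.0068), RFC4 (0.013), POLE (0.0261), POLE2 (0.0388), LIG1 (0.0544), CCNE1 (0.0562) and CHAF1A (0.0074). With limma the values were 0.0053 and 0.0072 for ORC6, 0.0008 on both scales for POLE, 0.0233 and 0.053 for POLE2, 0.0254 and 0.0304 for LIG1, and 0.0245 and 0.0272 for CCNE1. Some of these members passed under an alternative. MCM6, POLA2 and POLE passed as lower with the fit of all 9 samples (adjusted p = 0.0206, 0.0359 and 0.0359). MCM6 and POLA2 did so with filterByExpr as well (0.0467 and 0.0488). POLD1 passed as higher with library totals (0.19, adjusted p = 3.06e-04). With 1 replicate left out E2F2 ranged from -0.0616 (without CRLM1-OE replicate 1) to 0.0914 and POLE2 from -0.1909 to 0.1317 (without Ctrl replicate 1). RFC4 against Anti was 0.0262 with library totals, 0.005 and 0.0052 with limma, and -0.093 to 0.016 with 1 replicate left out. In Anti against Ctrl, CDT1 and TK1, which had passed as lower, and RPA1 were 0.0016, 0.0238 and 0.0425 with library totals, and TK1 and RPA1 were 0.0096 and 0.0288, and 0.0097 and 0.0303, with limma.

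With the replicate number as a block (replicate block), 3 members were higher and 32 lower than Ctrl, 2 higher and 40 lower than Anti, and 29 higher and 4 lower in Anti than in Ctrl. The numbers share no stated day or batch, and same-numbered libraries of different groups did not deviate together (correlation of deviations -0.0333 to 0.0783 in 9 pairs, beside -0.0457 to 0.0751 in 18 other pairs). Low counts limit POLA1, CCNE2 and POLE2 most.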
